A study of Mus musculus with 8 samples.

Results

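The genes described here are 44 genes of the machinery that copies DNA and divides the cell. They were chosen by name, as a list of replication, cyclin and mitosis genes, with earlier results of these data known. All 44 were among the 22165 genes of the count table. In the order of the list, the 22 genes from Mcm2 to Ccne2 form an S phase set and the 22 from Ccna2 to Ube2c a mitotic set. All 44 were among the 11079 genes that passed the filter on low counts, with 64 counts over all 8 libraries for Plk1 and 4993 for Pcna as the extremes.

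Poly(A) RNA was sequenced from bone marrow-derived macrophages of C57BL/6 mice, grown for 7 days in RPMI with M-CSF. The 4 groups were wild-type cells left untreated, wild-type cells given 250 µM dimethyl itaconate (DI) for 12 h, Nrf2-/- cells left untreated and Nrf2-/- cells given the same dose of DI for the same time, with 2 libraries in each. DI is an electrophilic ester of the macrophage metabolite itaconate, and Nrf2 is the transcription factor of the electrophile response. The Nrf2-/- mice came from Jackson Laboratory and carry the deletion in all cells, and the sources used here do not name the origin of the wild-type mice. The labels do not state separate animals for the libraries of a group, so p-values measure the spread between libraries, which may be technical.

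Before a cell copies its DNA, Cdc6 and Cdt1 load the MCM helicase onto origins, and Cdc45 and GINS then switch it on. Cyclin B with Cdk1 drives entry into mitosis, the spindle is built by kinesins and microtubule proteins, and the anaphase-promoting complex with Cdc20 ends it. S phase genes are commonly driven by E2F factors, and mitotic genes by the MuvB complex with B-Myb or FoxM1 acting at cell cycle homology elements. Bone marrow precursors divide in response to M-CSF while they mature into macrophages, and mature cells divide less.

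Libraries held 5554288 to 15680671 counts. Nfe2l2, which encodes Nrf2, had 1901 to 7022 counts in the wild-type libraries and 230 to 869 in the Nrf2-/- libraries, and the table does not show whether the remaining counts lie outside the deleted part. The 10 macrophage markers examined summed to 5850 to 6177 CPM (counts scaled to library size) in the 4 wild-type libraries, to 6625 and 6723 CPM in the untreated and to 4649 and 5478 CPM in the DI-treated Nrf2-/- libraries, the lowest of the 8, with Csf1r at 159 to 365 CPM. The erythroid genes Hbb-bs, Hbb-bt and Alas2 were at 0 in all libraries.

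The cDNA primer of these libraries ended in a run of 15 T, so the highest number of A in any 15 bases of a gene's coding sequence was counted for each gene, in the transcript with the longest coding sequence (GENCODE M21, GRCm38). The windows are shown because this number differed, with overlap, between members that were called and members that were not. Capitals mark A. The first 6 are the mitotic members called lower with DI in wild-type cells, and the next 5 the S phase members called lower. The last 4 belong to members with at most 9 A, none of which was called in that comparison. Members not called and not shown include Kif23, Cenpf, Aurka, Rfc3 and Rfc4, each with 12 A.
Kif11, chr19:37420276-37420290, plus strand, exon 22 of 22: AAAAgAcAAAgAAAA
Cenpe, chr3:135232996-135233010, plus strand, exon 16 of 46: AAAttAAAAgAAAAA
Nusap1, chr2:119624168-119624182, plus strand, exon 2 of 11: gAAAgAAAAtAAAAA
Tpx2, chr2:152885152-152885166, plus strand, exon 12 of 18: AAAgAAAAAAAcAgA
Mki67, chr7:135700054-135700068, minus strand, exon 12 of 14: AAAAAtctAAAAAAA
Top2a, chr11:99014477-99014491, minus strand, exon 10 of 36: AAAcAAAAgAAAAcA
Mcm3, chr1:20809596-20809610, minus strand, exon 11 of 17: gAccAAgAAgAAAAA
Mcm4, chr16:15635279-15635293, minus strand, exon 5 of 16: cAAAgAAgAAgAAAA
Pola1, chrX:93626555-93626569, minus strand, exon 2 of 37: AgAAAAgAAAtcAAA
Rrm1, chr7:102446703-102446717, plus strand, exon 3 of 19: AAAgAAAcAAAgAAA
Ccne2, chr4:11192998-11193012, plus strand, exon 4 of 12: cAAAAAAAgAAAAgA
Cdt1, chr8:122569202-122569216, plus strand, exon 2 of 10: gAAcAAAgAgtAcAA
Gins1, chr2:150925893-150925907, plus strand, exon 5 of 7: cAAccAttAtAAAAA
Cdc20, chr4:118436725-118436739, minus strand, exon 2 of 10: AAgcAAggAAAAccA
Cdc45, chr16:18810390-18810404, minus strand, exon 4 of 20: tgAAcAtAAAgAgcA
All 6 windows of the called mitotic members held 12 A. Those of the called S phase members held 10 A in Mcm3, 11 in Mcm4 and Pola1 and 12 in Rrm1 and Ccne2.

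The promoters of all members with a window were searched for E2F motifs, cell cycle homology elements and CCAAT boxes. The RefSeq windows (GRCm38.p6) ran from 250 bases before to 50 bases after the start of transcription. Windows were found for 36 of the 44 members, 18 of each set, whether or not they were called with DI. E2F motifs (TTTCCCGC, TTTGGCGC or TTTCGCGC, either strand) were found in 8 of 18 S phase members and 1 of 18 mitotic members, against 1.84% of all 32851 windows. The cell cycle homology element (TTTGAA or TTCGAA, either strand) was found in 4 of 18 S phase and 14 of 18 mitotic members, against 19.2% of all windows. CCAAT boxes were found in 13 of 18 and 16 of 18, against 37.4%. A gene was counted once over its windows while the shares are of single windows, and a match describes letters and not a bound site. Shown are the 250 bases before the start of 4 members called lower with DI in wild-type cells, with capitals at E2F motifs, cell cycle homology elements and CCAAT boxes. They lie at chr19:37376132-37376381 (Kif11) on the plus strand, chr3:135212313-135212562 (Cenpe) on the plus strand, chrX:93632156-93632405 (Pola1) on the minus strand and chr11:99024190-99024439 (Top2a) on the minus strand.
Kif11: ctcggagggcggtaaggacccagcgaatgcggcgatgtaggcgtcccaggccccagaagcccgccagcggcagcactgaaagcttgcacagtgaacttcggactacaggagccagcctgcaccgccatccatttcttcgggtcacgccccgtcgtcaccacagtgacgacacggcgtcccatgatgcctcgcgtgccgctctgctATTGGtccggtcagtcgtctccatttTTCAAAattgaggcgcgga
Cenpe: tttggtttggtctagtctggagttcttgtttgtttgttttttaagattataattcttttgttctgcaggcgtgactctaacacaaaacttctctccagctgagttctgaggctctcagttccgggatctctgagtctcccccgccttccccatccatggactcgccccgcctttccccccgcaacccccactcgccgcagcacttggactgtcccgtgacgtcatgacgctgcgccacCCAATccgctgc
Pola1: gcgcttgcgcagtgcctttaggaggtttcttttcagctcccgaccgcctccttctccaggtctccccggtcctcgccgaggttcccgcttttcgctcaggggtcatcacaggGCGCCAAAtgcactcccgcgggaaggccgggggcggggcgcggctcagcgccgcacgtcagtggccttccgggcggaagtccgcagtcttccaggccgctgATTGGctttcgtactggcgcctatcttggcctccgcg
Top2a: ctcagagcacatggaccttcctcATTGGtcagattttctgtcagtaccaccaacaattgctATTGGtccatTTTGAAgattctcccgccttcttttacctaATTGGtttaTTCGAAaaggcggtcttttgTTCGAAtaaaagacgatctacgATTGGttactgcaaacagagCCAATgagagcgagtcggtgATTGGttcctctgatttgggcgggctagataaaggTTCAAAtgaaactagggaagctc
Kif11 held 1 cell cycle homology element and 1 CCAAT box, Top2a 4 and 6. Pola1 held 1 E2F motif and 1 CCAAT box, and Cenpe 1 CCAAT box only.

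In wild-type cells, DI lowered 11 of the 44 genes and raised none (edgeR quasi-likelihood test, Benjamini-Hochberg adjusted p under 0.05 over all genes tested). Of all genes tested, 8.68% were called lower and 6.51% higher. The 11 were Mcm3 and Mcm4 of the helicase, Pola1 of DNA polymerase alpha, Rrm1 of ribonucleotide reductase, the cyclin Ccne2, the spindle genes Kif11, Cenpe, Nusap1 and Tpx2, and the chromosome genes Mki67 and Top2a. Below, values with ± are log2 fold changes and their standard errors (SE) from that model. The log2 fold change of 42 of the 44 genes was below 0, with a median of -0.89 against -0.02 for all genes tested. Without adjustment, 21 members had p under 0.05, and DESeq2 called 13, all lower. In 32 of the 44 genes both DI libraries lay below both untreated libraries, as did 29.3% of all genes tested. RNA came from whole cultures, so fewer dividing cells and less RNA per dividing cell cannot be told apart. Haematopoietic progenitor markers, 10 genes with Sox4 as the most abundant, summed to 51.1 to 53.2 CPM in untreated and 23.2 to 35.2 CPM in DI-treated wild-type cells, and to 44 to 48.3 and 26.4 to 30.4 CPM in the Nrf2-/- cells. Neutrophil markers, also 10 genes, summed to 417 to 442 and 278 to 349 CPM in wild-type cells and to 329 to 361 and 285 to 346 CPM in Nrf2-/- cells. The progenitor sum was thus lower with DI in both genotypes, and the neutrophil sum in wild-type cells. Most of the progenitor sum was Sox4, at 41.1 and 44.7 CPM in untreated and 26.7 and 18.2 CPM in DI-treated wild-type cells. Of the neutrophil markers, S100a9 went from 204 and 195 to 105 and 138 CPM in wild-type cells. S100a8 did not fall there, with 108 and 118 CPM untreated and 110 and 138 CPM with DI. The part of either cell type in the result was not tested. Without the first DI library of the wild type 6 members were called, and Ccne2, Mcm3, Mki67, Nusap1, Rrm1 and Top2a lost their call.

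**Figure D1:**
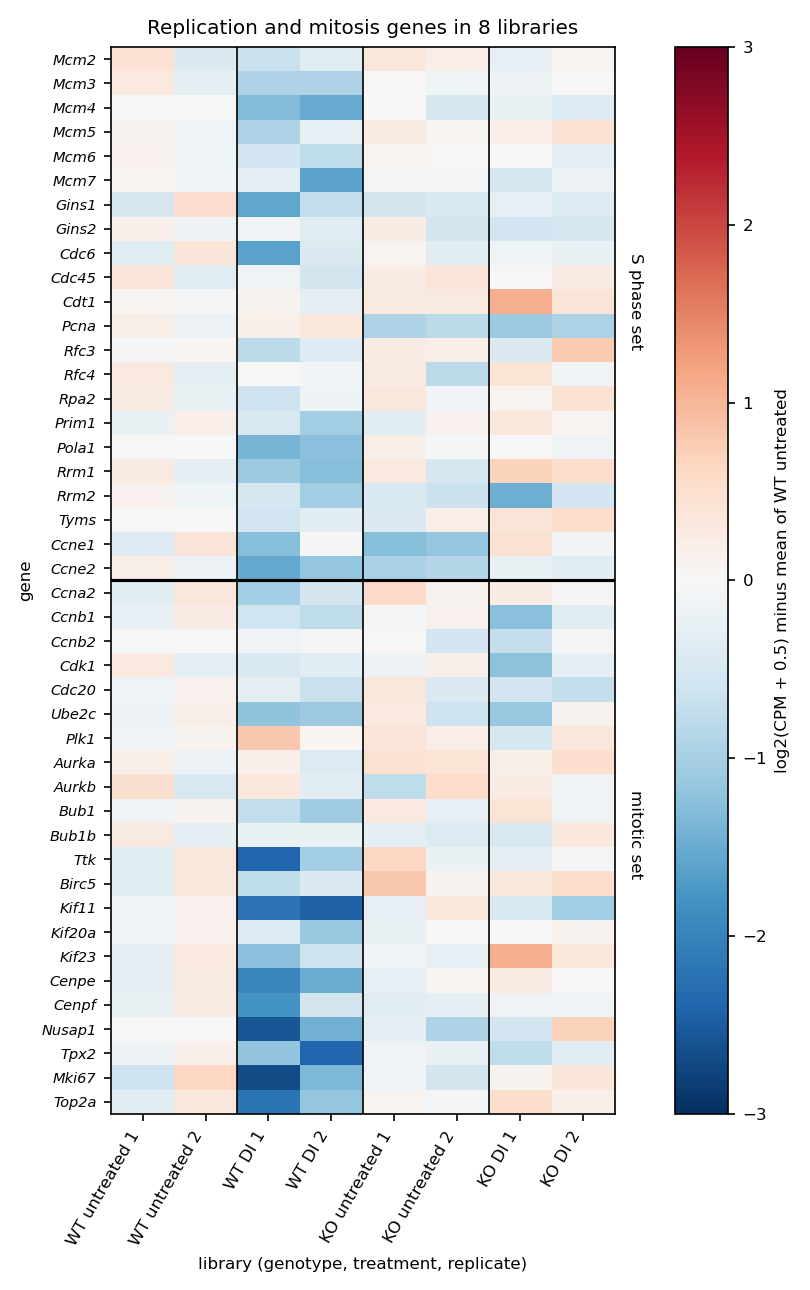
Colour gives log2(CPM + 0.5) of each gene (rows) in each library (columns) minus the mean of the 2 untreated wild-type libraries, from blue (lower) to red (higher). The columns of DI-treated wild-type cells are blue in most rows, and those of DI-treated Nrf2-/- cells are of both colours.

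Among the 11 genes that load or form the replicative helicase, Mcm3 and Mcm4 fell with DI in wild-type cells and 9 were not called. The MCM proteins form the ring that unwinds DNA. In wild-type cells Mcm4 had 17 and 16.8 CPM untreated and 6.6 and 5.59 CPM with DI, and in Nrf2-/- cells 17 and 11.7 CPM untreated and 14.7 and 12.7 CPM with DI. Both DI libraries of the wild type lay below the other 6, and the fall was 2.79-fold (log2 -1.48 ± 0.27, adjusted p = 0.0033). The 2 untreated wild-type libraries held 55.1 and 36.2 CPM of Mcm3 and the 2 with DI 23.2 and 23.4 CPM, against 45.3 and 40.5 and then 40.2 and 45.4 CPM in Nrf2-/- cells. The DI-treated wild-type libraries were again the lowest, with a log2 change of -0.97 ± 0.25, adjusted p = 0.021. Mcm6 did not pass (-0.69 ± 0.22, adjusted p = 0.055). Mcm2 (-0.59 ± 0.33, adjusted p = 0.26), Mcm5 (-0.57 ± 0.33, adjusted p = 0.26) and Mcm7 (-0.89 ± 0.39, adjusted p = 0.14) were below 0 as well.

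The helicase activators and loaders were not called. Gins1, a GINS subunit, had 5.07 and 10.8 CPM in untreated and 2.20 and 4.29 CPM in DI-treated wild-type cells, and its log2 change was -1.25 ± 0.41, adjusted p = 0.059. Gins2 was at -0.26 ± 0.33, adjusted p = 0.64. The loader Cdc6 (-1.10 ± 0.53, adjusted p = 0.18) and the activator Cdc45 (-0.48 ± 0.54, adjusted p = 0.58) had 201 and 138 counts in all, and large errors. Cdt1, the other loader, lay near 0: it had 35.7 and 32.6 CPM untreated and 36.8 and 28.4 CPM with DI in wild-type cells, and 41.3 and 41.1 CPM and 73.8 and 45 CPM in Nrf2-/- cells. Its change in wild-type cells was -0.07 ± 0.26, adjusted p = 0.88, and the first DI-treated Nrf2-/- library was the highest of all.

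Of the 6 genes of the replication fork, Pola1 alone was called. Pola1 is the catalytic subunit of the polymerase that starts each new strand. Pola1 was at 17.7 and 17.7 CPM in untreated and 6.44 and 7.08 CPM in DI-treated wild-type cells, and at 20.1 and 17.4 CPM and 17.5 and 16.2 CPM in Nrf2-/- cells. The 2 DI-treated wild-type libraries lay below all others, 2.60-fold lower than untreated (log2 -1.38 ± 0.24, adjusted p = 0.0023). Prim1, the primase that lays the RNA primer for it (-0.86 ± 0.36, adjusted p = 0.13), and Rfc3, a subunit of the clamp loader (-0.58 ± 0.35, adjusted p = 0.28), were not called. Rfc4 of the same loader (-0.09 ± 0.46, adjusted p = 0.92) and Rpa2, which coats single-stranded DNA (-0.40 ± 0.35, adjusted p = 0.46), lay closer to 0. Pcna, the sliding clamp, differed in pattern. In wild-type cells Pcna had 87 and 68.4 CPM untreated and 86.1 and 96.4 CPM with DI, and in Nrf2-/- cells 40.1 and 43.7 CPM untreated and 35.9 and 39.4 CPM with DI. Its Nrf2-/- libraries all lay below its wild-type libraries. Treated and untreated libraries overlapped in wild-type cells, where its change with DI was small (0.23 ± 0.22, adjusted p = 0.5). In Nrf2-/- cells both DI libraries lay just below both untreated ones, and the change was not called (-0.16 ± 0.22, adjusted p = 0.7).

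Rrm1, the large subunit of the reductase that makes deoxynucleotides, fell with DI in wild-type cells (log2 -1.25 ± 0.30, adjusted p = 0.016). The 2 untreated wild-type libraries held 22.7 and 15.7 CPM of Rrm1 and the 2 with DI 8.64 and 7.55 CPM, against 23.1 and 13.2 and then 30.1 and 27.4 CPM in Nrf2-/- cells. Its lowest libraries were those of DI-treated wild-type cells and its highest those of DI-treated Nrf2-/- cells. Rrm2, the small subunit, was not called (-0.90 ± 0.43, adjusted p = 0.18), nor was the thymidylate synthase Tyms (-0.47 ± 0.32, adjusted p = 0.36).

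Both E cyclins activate Cdk2 at the start of S phase. For Ccne2, levels were 13.1 and 10 CPM in untreated wild-type, 3.61 and 4.85 CPM in DI-treated wild-type, 5.6 and 5.97 CPM in untreated Nrf2-/- and 9.82 and 9.12 CPM in DI-treated Nrf2-/- libraries. Ccne2 thus fell with DI in wild-type cells (log2 -1.42 ± 0.29, adjusted p = 0.0067), while in Nrf2-/- cells the untreated libraries were the lower pair. Exons of Ccne2 overlap those of Ints8 on the opposite strand, and whether the counting used strand is not stated. Ccne1 was at 3.32 and 6.08 CPM in untreated and 1.57 and 4.29 CPM in DI-treated wild-type cells, and at 1.57 and 1.74 CPM and 6.4 and 4.26 CPM in Nrf2-/- cells. Ccne1 overlapped between treated and untreated wild-type cells (-0.63 ± 0.47, adjusted p = 0.4).

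The cyclins A and B, Cdk1 and the partners of the anaphase-promoting complex gave no call among 6 genes in wild-type cells, with a median log2 change of -0.83 and all 6 below 0. DESeq2 called none of them either, and 1 had an unadjusted p under 0.05. Ube2c, the ubiquitin-conjugating enzyme of that complex, had the lowest value, -1.75 ± 0.74, adjusted p = 0.13. Ccna2 (-1.16 ± 0.62, adjusted p = 0.22), Ccnb1 (-1.06 ± 0.66, adjusted p = 0.3) and Ccnb2 (-0.10 ± 0.58, adjusted p = 0.93) had 116, 89 and 93 counts over the 8 libraries, which limits what could be detected. Cdk1, the kinase these cyclins activate, was better covered at 663 counts. In wild-type cells Cdk1 had 12.3 and 8.02 CPM untreated and 7.07 and 7.73 CPM with DI, and in Nrf2-/- cells 8.92 and 11.2 CPM untreated and 3.95 and 8 CPM with DI. Its wild-type groups did not overlap, but the difference was small beside its error (-0.45 ± 0.35, adjusted p = 0.42). Cdc20, which directs the complex to its targets, had -0.61 ± 0.46, adjusted p = 0.41.

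Of 6 mitotic and checkpoint kinases and survivin (Birc5), none was called, and the median log2 change was -0.24. Of these 7 genes 2 had an unadjusted p under 0.05, and DESeq2 called Ttk. Ttk, a spindle checkpoint kinase, had 1.57 and 2.72 CPM in untreated cells and 0 and 0.745 CPM with DI in the wild type (-2.25 ± 0.79, adjusted p = 0.072). Its checkpoint partners Bub1 (-1.30 ± 0.57, adjusted p = 0.14) and Bub1b (-0.24 ± 0.35, adjusted p = 0.69) were below 0. Aurka, which matures the spindle poles (-0.16 ± 0.40, adjusted p = 0.82), and Aurkb, the kinase of the chromosomal passenger complex (-0.10 ± 0.66, adjusted p = 0.94), lay near 0. Birc5 of the same complex was lower but did not pass (-0.85 ± 0.56, adjusted p = 0.34). Plk1, a kinase active throughout mitosis, was the only member besides Pcna above 0 (0.64 ± 0.71, adjusted p = 0.58).

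The 7 spindle and kinetochore genes held 4 of the 6 mitotic calls and a median log2 change of -1.73. Kif11, the kinesin that pushes spindle poles apart, had the largest change of all members. The 2 untreated wild-type libraries held 15.5 and 18.9 CPM of Kif11 and the 2 with DI 3.3 and 2.8 CPM, against 14.3 and 21.6 and then 12.4 and 8.11 CPM in Nrf2-/- cells. Both DI-treated wild-type libraries were the lowest of the 8, 5.69-fold below untreated (log2 -2.51 ± 0.33, adjusted p = 0.00041), and the Nrf2-/- libraries with DI lay between. For Cenpe, levels were 35.1 and 52 CPM in untreated wild-type, 10.5 and 14.9 CPM in DI-treated wild-type, 35.9 and 45.5 CPM in untreated Nrf2-/- and 51.6 and 43.1 CPM in DI-treated Nrf2-/- libraries. Cenpe, the kinetochore motor that aligns chromosomes, was 3.40-fold lower (log2 -1.76 ± 0.28, adjusted p = 0.0014), and no library of another group came near its DI-treated wild-type levels. Tpx2 was at 36.9 and 45.7 CPM in untreated and 17.9 and 7.55 CPM in DI-treated wild-type cells, and at 37.3 and 35.6 CPM and 24.1 and 32.6 CPM in Nrf2-/- cells. Tpx2, which activates Aurora A and nucleates microtubules, was 3.32-fold lower (log2 -1.73 ± 0.34, adjusted p = 0.0056), with its 2 DI libraries well apart from each other.

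Nusap1, a microtubule-bundling protein, was the least covered of these calls with 386 counts. In wild-type cells Nusap1 had 6.2 and 6.15 CPM untreated and 0.628 and 1.96 CPM with DI, and in Nrf2-/- cells 5.07 and 3.04 CPM untreated and 3.95 and 10.2 CPM with DI. Its DI-treated wild-type libraries were the lowest, with a log2 change of -2.13 ± 0.55, adjusted p = 0.021. Its exons overlap those of Oip5 on the opposite strand. The libraries were made to keep strand, but the sources used here do not state whether the counting used strand. Kif23, a midzone kinesin needed for cytokinesis, missed the threshold (-0.94 ± 0.32, adjusted p = 0.063), as did the kinetochore protein Cenpf (-1.08 ± 0.36, adjusted p = 0.063) and the midzone kinesin Kif20a (-0.93 ± 0.42, adjusted p = 0.16).

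Both chromosome genes fell. The 2 untreated wild-type libraries held 35.7 and 56.4 CPM of Top2a and the 2 with DI 9.43 and 19.8 CPM, against 47.2 and 43.8 and then 65.3 and 49.8 CPM in Nrf2-/- cells. Top2a, the topoisomerase that untangles sister chromosomes, was 3.10-fold lower with DI in wild-type cells (log2 -1.63 ± 0.34, adjusted p = 0.007). For Mki67, levels were 13.9 and 34 CPM in untreated wild-type, 2.98 and 8.29 CPM in DI-treated wild-type, 20.3 and 14.8 CPM in untreated Nrf2-/- and 23.4 and 28.4 CPM in DI-treated Nrf2-/- libraries. Mki67, the proliferation marker that coats mitotic chromosomes, was 4.08-fold lower (log2 -2.03 ± 0.46, adjusted p = 0.011), and its untreated wild-type libraries differed from each other more than its untreated Nrf2-/- libraries did.

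**Figure D2:**
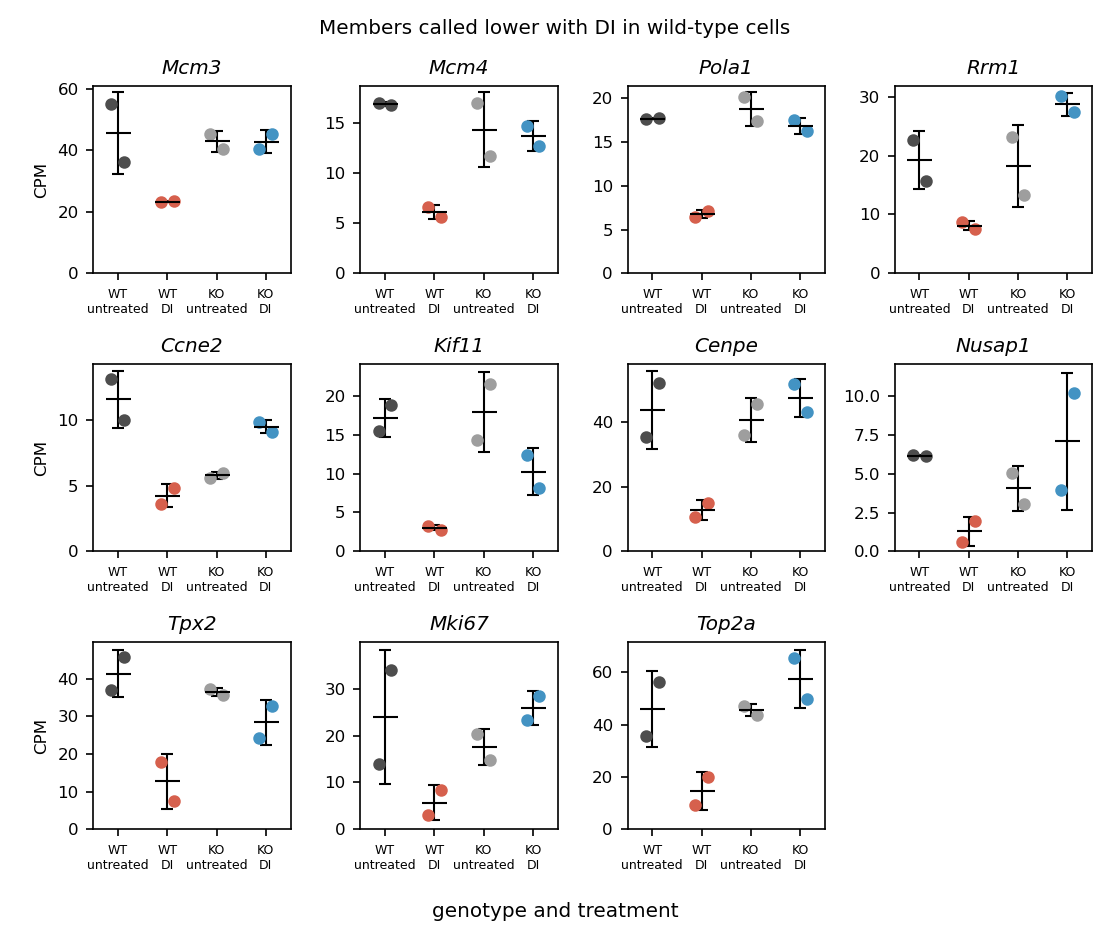
Each panel plots CPM of a gene called lower with DI in wild-type cells, by genotype and treatment (dots are libraries, bars the mean ± SD of 2). The DI-treated wild-type dots are the lowest in every panel, for example 3.30 and 2.80 CPM for Kif11.

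The S phase set had 5 of 22 genes lower with DI in wild-type cells, with a median log2 change of -0.66, and the mitotic set 6 of 22, with a median of -1.07. Without the second untreated wild-type library these medians were -0.65 and -0.75, and without the first -0.63 and -1.32, so the gap between the sets depended on the untreated libraries. In both sets 21 of 22 genes were below 0. Summed over the 22 genes, S phase transcripts were at 394 and 334 CPM in untreated and 260 and 263 CPM in DI-treated wild-type cells. Mitotic transcripts were at 228 and 317 CPM untreated and 93.6 and 115.7 CPM with DI. In Nrf2-/- cells the S phase sum was 334 and 306 CPM untreated and 351 and 341 CPM with DI, and the mitotic sum 252 and 247 CPM untreated and 308 and 275 CPM with DI. Both sums were thus lowest in the DI-treated wild-type libraries. The mitotic sum divided by the S phase sum was 0.579 and 0.95 untreated and 0.360 and 0.439 with DI. In Nrf2-/- cells that ratio was 0.754 and 0.808 untreated and 0.878 and 0.807 with DI. The 2 DI-treated wild-type libraries therefore had the lowest mitotic share of the 8, while the 2 untreated wild-type libraries differed most from each other. The difference between the sets was not tested.

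**Figure D3:**
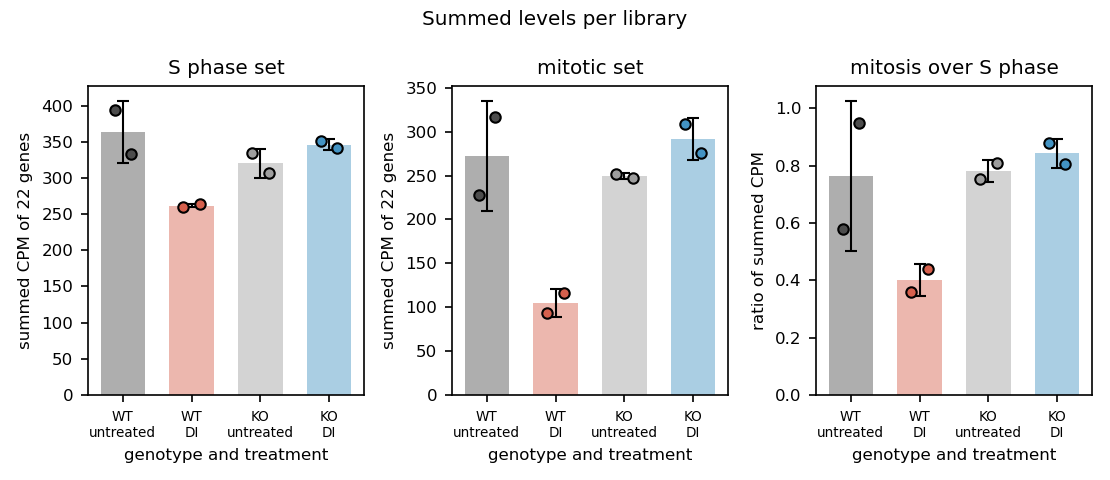
Bars give the mean and error bars the SD of 2 libraries (dots) for the summed CPM of the 22 S phase genes, of the 22 mitotic genes, and the ratio of both sums. The mitotic sum of DI-treated wild-type cells, 93.6 and 115.7 CPM, lies below all 6 other libraries.

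The calls lay mostly among the better covered genes of both sets. Among members with a mean of at least 10 CPM, 4 of 8 S phase genes and 5 of 6 mitotic genes were called lower with DI in wild-type cells, against 9.85% of all genes tested at that depth. Among the rest, 1 of 14 and 1 of 16 were called, a share near the 6.24% of all genes tested under 10 CPM. The cyclins B, Plk1 and Cdc20 had 64 to 178 counts each over the 8 libraries.

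The mitotic members were richer in A than the S phase members. A window with 12 A was present in 9 of 22 mitotic (40.9%) and 4 of 22 S phase genes (18.2%), and one with 12 or more in 10.6% of the 10999 genes tested with a coding sequence. None of the 12 members with at most 9 A was called lower with DI in wild-type cells by edgeR or DESeq2 (2 had an unadjusted p under 0.05), 3 of 19 with 10 or 11 A were, and 8 of 13 with 12 A. Their median log2 changes were -0.47, -0.89 and -1.42. All genes tested showed a shift in the same direction: with at most 9 A, 5.44% were lower and the median was 0.14, with 10 or 11 A 10.2% and -0.10, and with 12 or more 15.7% and -0.28. In Nrf2-/- cells the order over all genes was opposite, with medians of -0.15, 0.09 and 0.27. At each level of A the median of the members lay below that of all genes in wild-type cells.

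When the trend with A was removed in each library, 11 members were still called lower with DI in wild-type cells, against 7.68% of all genes. Of the first 11, 10 kept their call, Rrm1 just missed the threshold (-0.98 ± 0.31, adjusted p = 0.059) and Mcm6 gained a call. The median log2 change was -0.65 for the S phase and -1.0 for the mitotic set. Kif11 (-2.22 ± 0.33, adjusted p = 0.0011) and Cenpe (-1.47 ± 0.26, adjusted p = 0.0031) remained lower, as did Mki67 (-1.73 ± 0.42, adjusted p = 0.019), Top2a (-1.34 ± 0.30, adjusted p = 0.014) and Pola1 (-1.15 ± 0.23, adjusted p = 0.0069). Testing only genes with at most 9 A left 12 members, 8 of S phase and 4 of mitosis, of which 1, Gins1, was called. All 6 mitotic members with a mean of at least 10 CPM held 12 A, so depth and A content cannot be told apart among them. Under 10 CPM, 1 of 3 mitotic members with 12 A was called, Nusap1, and Cenpf and Aurka were not. Of the 13 with fewer A edgeR called none, with 4 at an unadjusted p under 0.05, and DESeq2 called Ttk. Priming inside coding sequence was not tested.

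**Figure D4:**
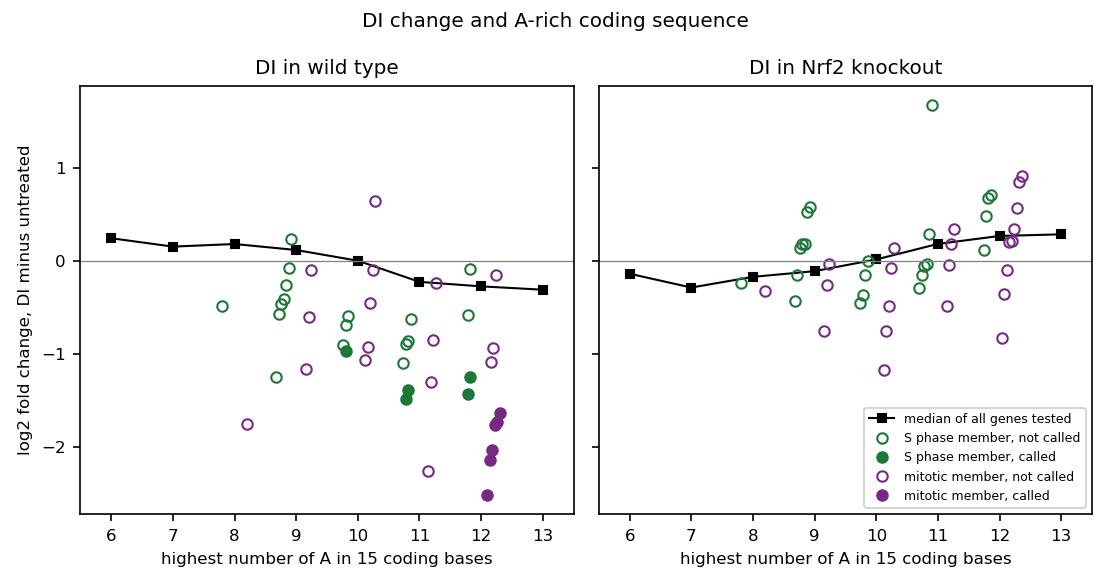
The log2 fold change with DI is plotted against the highest number of A in 15 coding bases, in wild-type (left) and Nrf2-/- cells (right); circles are members, spread sideways within a class and filled where called, and squares are medians of all genes tested. In wild-type cells all 6 called mitotic members stand at 12 A, and most members lie below the line of all genes.

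In Nrf2-/- cells no member was called with DI, against 4% of all genes called lower and 4.49% called higher. Without adjustment 5 members had p under 0.05, and DESeq2 called Ccne1. The median log2 change was 0.06 for the S phase set and -0.06 for the mitotic set. Both DI libraries lay below both untreated ones in 8 of 44 members, against 29.3% of all genes. Ccne1 had the highest value (1.67 ± 0.52, adjusted p = 0.069), followed by Kif23 (0.91 ± 0.31, adjusted p = 0.089), and Kif11 was among the lower (-0.82 ± 0.30, adjusted p = 0.1). Cenpe (0.21 ± 0.27, adjusted p = 0.65), Top2a (0.34 ± 0.32, adjusted p = 0.54) and Mki67 (0.57 ± 0.43, adjusted p = 0.42), which fell in wild-type cells, were above 0. Cdk1 (-0.75 ± 0.36, adjusted p = 0.21) and Ccnb1 (-1.17 ± 0.68, adjusted p = 0.3) were below 0 in both genotypes, as were all 6 genes of the group of cyclins A and B.

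**Figure D5:**
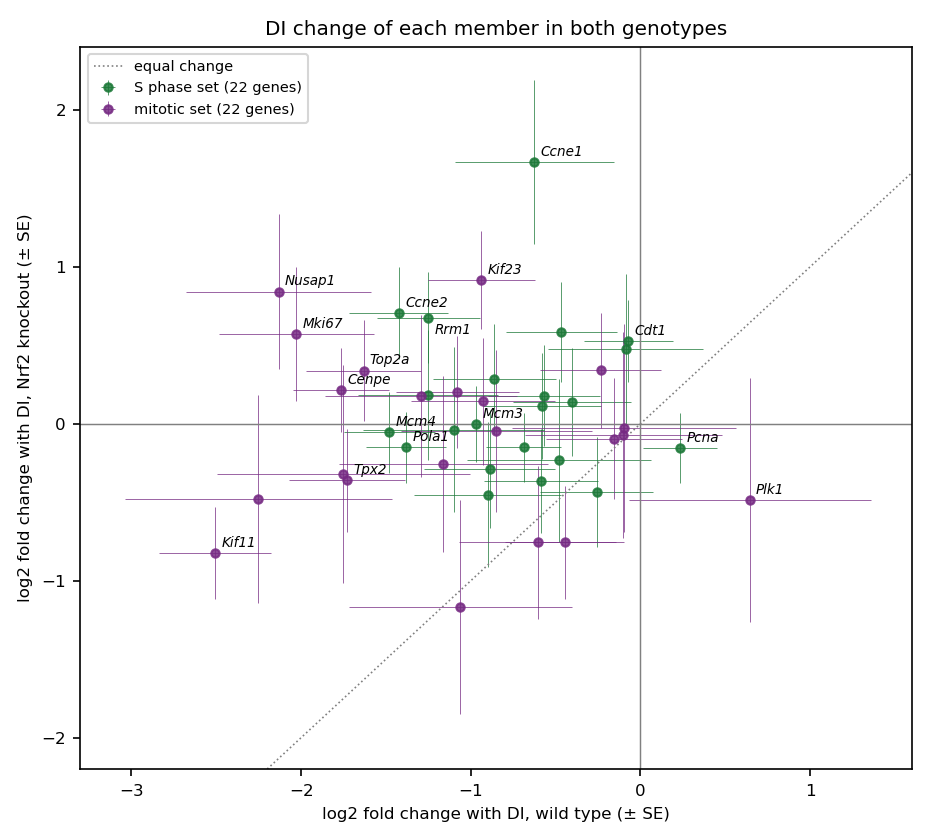
Each point is a member, with its log2 fold change with DI in wild-type cells (x) and in Nrf2-/- cells (y), bars giving SE; both comparisons use separate libraries within a shared estimate of spread. Kif11 lies at -2.51 and -0.82, and Nusap1, Mki67, Cenpe and Top2a lie left of 0 and above it.

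The DI response itself differed between genotypes for 10 members, all with a higher change in Nrf2-/- cells, against 4.96% of all genes in that direction and 2.59% in the other. They were Mcm4, Pola1, Rrm1 and Ccne2 of the S phase set and Kif11, Kif23, Cenpe, Nusap1, Mki67 and Top2a of the mitotic set. Of these, the difference was largest for Nusap1 (2.97 ± 0.74, adjusted p = 0.031) and Mki67 (2.60 ± 0.62, adjusted p = 0.027), followed by Ccne2 (2.13 ± 0.41, adjusted p = 0.01) and Cenpe (1.98 ± 0.39, adjusted p = 0.011). These calls rested on few libraries. Without the first or second untreated wild-type library 5 and 3 members were called, without the first DI-treated wild-type library 4, without the first DI-treated Nrf2-/- library 3, and without either untreated Nrf2-/- library 1. None of the 10 was called in every such fit. The share of all genes called with a higher change in Nrf2-/- cells was 1.82% with at most 9 A, 6.36% with 10 or 11 and 11.8% with 12 or more. Of the members, 0 of 12 with at most 9 A, 2 of 19 with 10 or 11 and 8 of 13 with 12 were called. With the trend in A removed 2 of the 44 members were called, Ccne2 (adjusted p = 0.049) and Cenpe (adjusted p = 0.04). That share is near the 3.37% of all genes called in that fit. Nusap1 (2.46 ± 0.74, adjusted p = 0.074) and Mki67 (2.04 ± 0.58, adjusted p = 0.063) then missed the threshold.

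No member was called between untreated Nrf2-/- and wild-type cells, against 0.524% of all genes called lower and 0.0812% called higher in Nrf2-/- cells. Without adjustment 3 members had p under 0.05, and DESeq2 called Pcna. The 3 were Pcna (-0.89 ± 0.22, adjusted p = 0.11), Ccne1 (-1.50 ± 0.52, adjusted p = 0.29) and Ccne2 (-0.99 ± 0.29, adjusted p = 0.18), all lower in Nrf2-/- cells.

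Under DI, 13 members were higher and 1 lower in Nrf2-/- than in wild-type cells, against 11.4% and 9.74% of all genes. This comparison uses the same DI-treated wild-type libraries as the DI comparison above, so its calls are not separate evidence. The share of all genes called higher was 5.91% with at most 9 A, 13.7% with 10 or 11 and 24.4% with 12 or more. Of the members, 1 of 12 with at most 9 A, 3 of 19 with 10 or 11 and 9 of 13 with 12 were higher. With the trend in A removed 14 members were called, 12 of them among those called here. The higher genes were all 11 genes that fell with DI in the wild type, and Cdt1 and Kif23. Among them were Cenpe (1.88 ± 0.28, adjusted p = 0.00078), Top2a (1.95 ± 0.34, adjusted p = 0.0021), Kif11 (1.76 ± 0.34, adjusted p = 0.0036) and Rrm1 (1.83 ± 0.30, adjusted p = 0.0016). Kif23 had 17.3 and 27.1 CPM in DI-treated wild-type and 88.6 and 52.7 CPM in DI-treated Nrf2-/- cells (1.66 ± 0.32, adjusted p = 0.0037). Pcna was the lower gene, 2.43-fold (-1.28 ± 0.22, adjusted p = 0.002), and its 4 Nrf2-/- libraries lay at 35.9 to 43.7 CPM, all below the 4 wild-type libraries at 68.4 to 96.4 CPM. The counts of Pcna could include reads of Pcna-ps1 and Pcna-ps2, 2 pseudogene copies. Pcna, Pola1, Rrm1, Kif11, Kif23, Cenpe and Top2a kept their calls without each library in turn. The 8 stromal markers, with Lum at 0, summed to 92.4 to 134 CPM in the wild-type and 45.1 to 50.2 CPM in the Nrf2-/- libraries, and the macrophage marker sum was lowest in the DI-treated Nrf2-/- libraries. The part of either in the differences between genotypes was not tested.

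Further genes of the same processes were taken from wider lists. These lists, and those of the regulators below, were also chosen with earlier results of these data known. Their shares are therefore not separate evidence. Of 42 other replication genes tested, 7 (16.7%) were lower and none higher with DI in wild-type cells, against 8.68% lower and 6.51% higher among all genes tested, with a median log2 change of -0.29. They included Lig1, which seals Okazaki fragments (-1.64 ± 0.23, adjusted p = 0.00057), and Clspn, a fork checkpoint mediator (-2.13 ± 0.32, adjusted p = 0.00096). Chaf1a of the histone chaperone CAF-1 (-2.46 ± 0.39, adjusted p = 0.0014) and the fork protein Timeless (-2.64 ± 0.42, adjusted p = 0.0015) fell as well. Of 65 other mitosis genes 55 were tested, and 18 (32.7%) were lower and none higher, with a median of -0.87. Kif20b, a cytokinesis kinesin (-1.96 ± 0.26, adjusted p = 0.00039), and the kinetochore protein Ndc80 (-1.74 ± 0.34, adjusted p = 0.0049) were among them. So were the Cdk1-inhibiting kinase Wee1 (-1.71 ± 0.33, adjusted p = 0.0044) and the nuclear lamin Lmnb1 (-1.83 ± 0.35, adjusted p = 0.0042). The richest window held 12 A in Clspn, Timeless and Kif20b, 11 in Lig1, Ndc80 and Wee1, 10 in Chaf1a and 9 in Lmnb1. In Nrf2-/- cells 6 of the 55 (10.9%) were higher and 1 (1.82%) lower with DI, against 4.49% and 4% of all genes. The higher ones included Ndc80 (1.78 ± 0.31, adjusted p = 0.008), Lmnb1 (1.59 ± 0.33, adjusted p = 0.016), Prc1 (1.36 ± 0.29, adjusted p = 0.016) and Ccnf (2.36 ± 0.50, adjusted p = 0.016). Of the replication genes, Clspn (1.27 ± 0.29, adjusted p = 0.021) and Orc2 (1.03 ± 0.25, adjusted p = 0.026) were higher, 2 of 42 and so near the share of all genes. Of these genes higher in Nrf2-/- cells, Clspn and Orc2 had 12 A, Ndc80 and Prc1 11, Ccnf 10 and Lmnb1 9.

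Upstream of these genes, 3 of 14 G1 regulators tested (21.4%) were higher and 2 (14.3%) lower with DI in wild-type cells, against 6.51% and 8.68% of all genes. The D cyclins Ccnd1 and Ccnd2, which activate Cdk4 and Cdk6 in response to growth factors, were the 2 lower genes. Ccnd1 was at 3704 and 3635 CPM in untreated and 1443 and 821 CPM in DI-treated wild-type cells, and at 3371 and 3476 CPM and 3885 and 3463 CPM in Nrf2-/- cells. In wild-type cells Ccnd2 had 545 and 606 CPM untreated and 103 and 83 CPM with DI, and in Nrf2-/- cells 1234 and 1148 CPM untreated and 788 and 615 CPM with DI. In wild-type cells both DI libraries lay below all others, with a fall of Ccnd1 (-1.70 ± 0.27, adjusted p = 0.0013) and of Ccnd2 (-2.63 ± 0.24, adjusted p = 2.7e-05). In Nrf2-/- cells neither Ccnd1 (0.10 ± 0.26, adjusted p = 0.84) nor Ccnd2 (-0.76 ± 0.23, adjusted p = 0.054) was called. Both genes have 8 A in their richest window. The Cdk inhibitors Cdkn2b (2.56 ± 0.37, adjusted p = 0.00078) and Cdkn1c (2.06 ± 0.33, adjusted p = 0.0016) rose, as did the growth regulator Myc (1.44 ± 0.23, adjusted p = 0.0013). Myc was also called higher in Nrf2-/- cells (1.23 ± 0.23, adjusted p = 0.01). Cdkn2b (1.29 ± 0.44, adjusted p = 0.089) and Cdkn1c (1.12 ± 0.36, adjusted p = 0.075) were higher there too but missed the threshold. For neither inhibitor was the difference between genotypes in the DI response called (adjusted p = 0.19 and 0.23). In wild-type cells the p53 target Cdkn1a was not called (0.16 ± 0.29, adjusted p = 0.74). Of 18 E2F, RB, MuvB and FOXM1 regulators tested, E2f4 rose (1.16 ± 0.23, adjusted p = 0.0049), and E2f8 (-2.34 ± 0.47, adjusted p = 0.006), Tfdp2 (-1.63 ± 0.33, adjusted p = 0.006) and Rbl2 (-1.24 ± 0.29, adjusted p = 0.013) fell. That is 1 of 18 higher (5.56%), a share near that of all genes, and 3 of 18 lower (16.7%). The richest window of the genes that rose held 6 A in Cdkn2b, 7 in Cdkn1c, 9 in E2f4 and 10 in Myc. Among the genes that fell, E2f8 and Rbl2 had 11 A and Tfdp2 had 12. E2f1 (0.70 ± 0.30, adjusted p = 0.13) and E2f2 (0.82 ± 0.26, adjusted p = 0.056) did not pass, Mybl2 (0.12 ± 1.08, adjusted p = 0.95) had 48 counts and Foxm1, with 54 counts, was not tested.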

How the data were processed

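The authors deposited raw counts per Ensembl gene for 8 libraries, 2 in each of 4 groups. Per the labels' protocols, poly(A) RNA was captured on oligo-dT beads, and cDNA was primed with an oligo-dT primer of 15 T. Adaptors were ligated and strand-specific libraries amplified by PCR, with no molecular identifier described. Per the submitters' processing notes, mm10, STAR, HTSeq and DESeq2 were used. Their versions, the annotation release and the use of strand in counting are not given in the sources used here.

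Genes with low counts were removed by filterByExpr of edgeR (minimum count 10, by group), leaving 11079 of 22165 genes, and TMM factors scaled the library sizes. CPM are counts divided by these scaled library sizes. Differences were tested with all 8 libraries in 1 model, in which each group had its own mean, by the robust quasi-likelihood test of edgeR 4.0.16 (R 4.3.3). Genes with a Benjamini-Hochberg adjusted p under 0.05 over all genes tested were called, with no fold threshold. Errors of log2 fold changes are standard errors (SE) of that fit, and "log2" before a value in the text is the log2 fold change, DI minus untreated or Nrf2-/- minus wild type. The interaction is the change with DI in Nrf2-/- cells minus that in wild-type cells. Replicate libraries differed beyond counting error (chi-square over its degrees of freedom 15.2 to 45.3).

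The highest number of A in 15 coding bases was taken from GENCODE M21. Its trend was removed with an offset per library and class of A count, from 6 to 13. DESeq2 1.42.0, other scaling, no filter, a replicate block and leaving out each library were alternatives. The fit was tested on simulated data in which 200 genes with a mean above 10 CPM were changed in 1 group. It called 42 of 99 genes changed 2-fold (42.4%) and 100 of 101 changed 4-fold (99%). A 2-fold change was thus often not called. The 44 genes and all lists were chosen with earlier results of these data known. Named genes are all 44 members, up to 4 called genes with the smallest p of each wider list and comparison, and 8 regulators named in the lists (Cdkn1a, Ccnd1, Ccnd2, Myc, E2f1, E2f2, Foxm1 and Mybl2). Printed promoters belong to the 4 members with the smallest p that had a window with a motif. Exons of 10 members overlap a counted gene on the opposite strand (Mcm7, Gins2, Cdc45, Rfc4, Ccne2, Ccna2, Cdc20, Ube2c, Kif20a and Nusap1), and Pcna, Tyms, Ccnb1 and Ccnb2 have pseudogene copies that could take or give reads. Over all libraries, dendritic cell markers summed to 10.9 to 17.6 CPM, lymphocyte markers to 5.3 to 12.5 CPM and mast cell markers to 2.7 to 5.3 CPM.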

Additional observations from a re-analysis of the deposited data

Results flagged for a closer look

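The change with DI differed between wild-type and Nrf2-/- cells in the test of the difference itself for 10 of the 44 members. All 10 had a higher change in Nrf2-/- cells, against 4.96% of all genes in that direction. Of the 10, 8 had 12 A in their richest window, and of all genes with 12 or more A 11.8% were called in that direction. With the trend in A removed 3.37% of all genes were. Leaving out 1 library at a time gave 1 to 8 calls, with 1 when either untreated Nrf2-/- library was left out, and 2 were called with the trend in A removed. On the log2 scale, as the change in Nrf2-/- cells minus that in wild-type cells, the S phase genes differed by 1.43 (Mcm4), 1.23 (Pola1), 1.93 (Rrm1) and 2.13 (Ccne2). The mitotic genes differed by 1.68 (Kif11), 1.85 (Kif23), 1.98 (Cenpe), 2.97 (Nusap1), 2.60 (Mki67) and 1.97 (Top2a).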

How the results depend on the processing

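With RLE size factors all 11 wild-type calls of DI were kept, and DESeq2 kept all 11 and called 13. Without the filter on low counts 16 were called in wild-type cells, 2 with DI in Nrf2-/- cells (Ccne1 and Kif23) and 2 between untreated genotypes (Ccne1 and Pcna). DESeq2 called 1 with DI in Nrf2-/- cells (Ccne1) and 1 between untreated genotypes (Pcna). With the trend in A removed, 1 was called with DI in Nrf2-/- cells (Kif11) and 2 for the interaction. Among genes with at most 9 A, where 12 members could be tested, 1 was called with DI in wild-type cells, 0 for the interaction and 3 between genotypes under DI. For the interaction 2 of those 12 had an unadjusted p under 0.05 in the fit of all genes. Leaving out 1 library at a time gave 6 to 13 calls for DI in wild-type cells, 0 to 1 for DI in Nrf2-/- cells, 1 to 8 for the interaction, 0 to 0 between untreated genotypes and 10 to 14 under DI. A group left with 1 library was assumed to vary like the others. In wild-type cells Mcm4, Pola1, Kif11, Cenpe and Tpx2 kept their calls in each of these fits and under each alternative that tested them. The cause of these shifts was not tested, beyond the smaller number of genes or libraries where some were left out. Deviations of libraries with the same replicate number correlated at -0.08 to 0.16 over 6 pairs of groups, with 2 above 0.1. The highest was that of untreated with DI-treated wild-type cells. Such weak values cannot decide whether the numbers pair the libraries. With the replicate block 13 members were called with DI in wild-type cells, 0 in Nrf2-/- cells, 10 for the interaction, 0 between untreated genotypes and 15 under DI. No call of a member changed sign under an alternative, while 94 values lost and 51 gained a call over all members, comparisons and alternatives. Genes with under about 10 CPM had larger errors, which limits the cyclins A and B and most kinases.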
